A study of Rattus norvegicus with 9 samples.

Results

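The respiratory chain was followed here through 97 genes of rat liver, of 15565 genes analysed. Members were taken by symbol: all Mt- genes, the Nduf, Uqcr and Atp5 families, Sdha to Sdhd, the numbered Cox subunit genes of the families 4 to 8, Cyc1 and Cycs. A member also needed at least 10 reads in 3 or more of the 9 libraries. Of 103 symbols that matched, 6 missed this threshold (Atp5f1, Cox4i2, Cox6a2, Cox6b2, Cox8b and Ndufa4l2). Atp5f1, classed as a complex V subunit, had 0 to 5 reads a library, and the reason for so few was not tested. The 97 members were 13 protein-coding genes of the mitochondrial genome and 84 nuclear genes. Among the nuclear members, 71 encode subunits, 34 of complex I, 4 of complex II, 9 of complex III, 10 of complex IV and 14 of complex V. The other nuclear members were 9 assembly or coupling factors, the carrier cytochrome c (Cycs), the copy Ndufa10l1, and Ndufa4 and Cox7a2l, which were set apart because Ndufa4 is a subunit of cytochrome c oxidase despite its name and Cox7a2l is a supercomplex factor.

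RNA of the liver of male rats, strain SD by its label, was sequenced in 9 libraries, 3 a group. The SCL-treated group received a Smilax china L. preparation, the high-fat diet group ate high-fat food for 8 weeks as a model of fatty liver, and the normal diet group was the control. What the SCL-treated rats were fed is not in the labels, and the text on the design writes SCS where the sample labels write SCL, which was taken as the same group without a statement that it is. Whether each library of a group is a different rat is not stated in the sources used here, so a p-value measures the spread between these libraries, which may be technical.

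The respiratory chain passes electrons from NADH (complex I) and succinate (complex II) through complex III and cytochrome c to oxygen (complex IV), and complex V uses the resulting proton gradient to make ATP. Complexes I, III, IV and V are built from subunits encoded in both genomes, while complex II is encoded in the nucleus alone. The mitochondrial genes are transcribed as long polycistronic RNAs by a polymerase of their own and cut at the tRNAs between them, whereas each nuclear gene has its own promoter, often with sites for the factors NRF1, the ETS factor GABP (NRF2) and YY1.

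Promoters of 3 nuclear members are shown because their genes represent the patterns described further on. Ndufa6 and Cox4i1 are the most abundant nuclear subunit genes of complexes I and IV. Sdha is a complex II gene with another order across the libraries, which not all genes of its complex share. Sdha was chosen after its values were seen. The sequences are RefSeq promoters of the assembly GRCr8, 250 bases before to 50 after the gene's start, 5′ to 3′ on the strand of the gene. Capitals mark matches, on either strand, to GCGCANGCG (NRF1 core), CCGGAAG (ETS) and AAGATGGCG (YY1). The Ndufa6 window lies at chr7:115750268-115750567 on the minus strand, the Cox4i1 window at chr19:65630133-65630432 on the plus strand, and the Sdha window at chr1:30764303-30764602 on the plus strand.
Ndufa6: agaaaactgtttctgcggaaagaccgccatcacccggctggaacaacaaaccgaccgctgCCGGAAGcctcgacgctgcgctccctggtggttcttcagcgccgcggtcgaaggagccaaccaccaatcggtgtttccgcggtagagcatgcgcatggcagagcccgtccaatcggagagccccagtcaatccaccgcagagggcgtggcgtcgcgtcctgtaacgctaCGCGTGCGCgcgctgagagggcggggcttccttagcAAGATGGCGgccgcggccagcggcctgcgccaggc
Cox4i1: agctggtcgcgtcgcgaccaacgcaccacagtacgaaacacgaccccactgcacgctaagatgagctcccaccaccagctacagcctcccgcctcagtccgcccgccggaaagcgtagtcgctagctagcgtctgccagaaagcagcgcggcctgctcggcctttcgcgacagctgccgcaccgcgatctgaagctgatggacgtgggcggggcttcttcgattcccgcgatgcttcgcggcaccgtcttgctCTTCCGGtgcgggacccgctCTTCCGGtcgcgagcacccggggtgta
Sdha: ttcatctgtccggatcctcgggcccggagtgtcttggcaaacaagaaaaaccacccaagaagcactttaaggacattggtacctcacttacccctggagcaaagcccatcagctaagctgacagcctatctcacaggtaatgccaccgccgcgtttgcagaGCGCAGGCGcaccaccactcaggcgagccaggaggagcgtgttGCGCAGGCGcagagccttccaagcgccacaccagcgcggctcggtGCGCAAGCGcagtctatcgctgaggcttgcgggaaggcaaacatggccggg

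Ndufa6 held 1 ETS match upstream, 1 NRF1 core match and 1 YY1 match near the gene's start, Cox4i1 held 2 ETS matches in the opposite orientation near the start, and Sdha held 3 matches to the NRF1 core before or at its start. All 84 nuclear members were matched to a RefSeq gene and 72 had a promoter sequence. Of these 72 promoters, 27.8% held the NRF1 core, against 5.80% of all 33469 promoters in the RefSeq set. The stricter NRF1 letters GCGCATGCG, which also count as a core match, were in 12.5% of member promoters and 1.52% of all promoters. The ETS motif was in 27.8% of member promoters and 8.75% of all, and the YY1 motif in 12.5% and 1.73%. The ERR motif CAAGGTCA was in 5.56% of member promoters and 1.52% of all, and the Sp1 motif GGGCGG in 40.3% and 33.1%. These are counts of letters in fixed windows, and no binding was measured. Members were counted with 1 promoter a gene, while every sequence of the RefSeq set was counted. The 2 sets were not matched for expression or base composition.

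Before the members are compared, 2 libraries must be described, both of which were kept in the main fit. Total reads were 12413774 to 15521648 a library, and the 13 Mt- genes took 3.85% to 49.0% of them. Mt- genes took over 40% of the reads in SCL-treated replicate 2 and high-fat diet replicate 3. Hepatocyte markers (8 of 8 in the tables) summed to 50535 and 53409 CPM (reads in 1000000 reads of the library, Mt- reads included) in these 2 libraries and to 116459 to 170319 in the other 7. Counted over the reads outside Mt- genes alone, they summed to 99163 and 95617 per 1000000 reads in these 2 libraries and to 139328 to 183212 in the other 7. On that measure the markers of Kupffer cells, the resident macrophages (6 of 6 in the tables), summed to 201 and 182 against 233 to 441, and those of sinusoidal endothelium (4 of 5) to 193 and 165 against 148 to 231. Erythroid markers (4 of 6) summed to 1932 to 1996 against 156 to 1078. By group and over all reads, Kupffer markers summed to 102 to 333 CPM in SCL-treated, 102 to 251 in high-fat diet and 257 to 424 in normal diet libraries. The part of these differences in the results was not tested. Erythroid markers summed over all reads to 319 to 1017 CPM in SCL-treated, 287 to 1079 in high-fat diet and 150 to 417 in normal diet libraries. Markers of striated muscle (3 of 6 in the tables), a tissue rich in respiratory chain RNA, summed to at most 2.53 CPM in any library. In bulk RNA, fewer cells of a type and less RNA per cell cannot be told apart.

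The mitochondrial share of the reads differed widely between libraries of the same group. Mt- reads made up 11.0%, 49.0% and 7.04% of the reads of SCL-treated replicates 1, 2 and 3, 4.90%, 18.8% and 44.1% in those of high-fat diet, and 4.63%, 3.85% and 11.2% in the normal diet replicates. All 3 groups overlapped, and 1 SCL-treated and 1 high-fat diet library held most of the excess. The group means were 22.3% ± 23.2 in SCL-treated, 22.6% ± 19.9 in high-fat diet and 6.54% ± 4.01 in normal diet libraries (SD, n = 3 each). The nuclear subunit share varied less. As a share of the reads outside Mt- genes, which removes the space the Mt- reads take, they made up 1.34%, 1.39% and 1.22% in the SCL-treated replicates, 0.919%, 1.53% and 1.5% in the high-fat diet replicates, and 0.754%, 0.939% and 1.18% in the normal diet replicates. Every SCL-treated library was above every normal diet library on this measure, and the high-fat diet libraries spanned both. The median log2 deviation of the subunits from their own mean did not separate them. Per reads outside Mt- genes it was 0.25, 0.093 and 0.058 in SCL-treated and -0.68, -0.27 and 0.064 in normal diet replicates. With totals corrected for library make-up (TMM) it was 0.35, -0.29 and 0.43 against -0.57, -0.22 and 0.20. On the first scale all genes outside Mt- had medians of 0.33 and -0.34 in SCL-treated replicates 2 and 3, and 0.34 in high-fat diet replicate 3. The highest library was 12.7-fold above the lowest in the Mt- share and 2.03-fold above it in the nuclear subunit share.

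**Figure D1:**
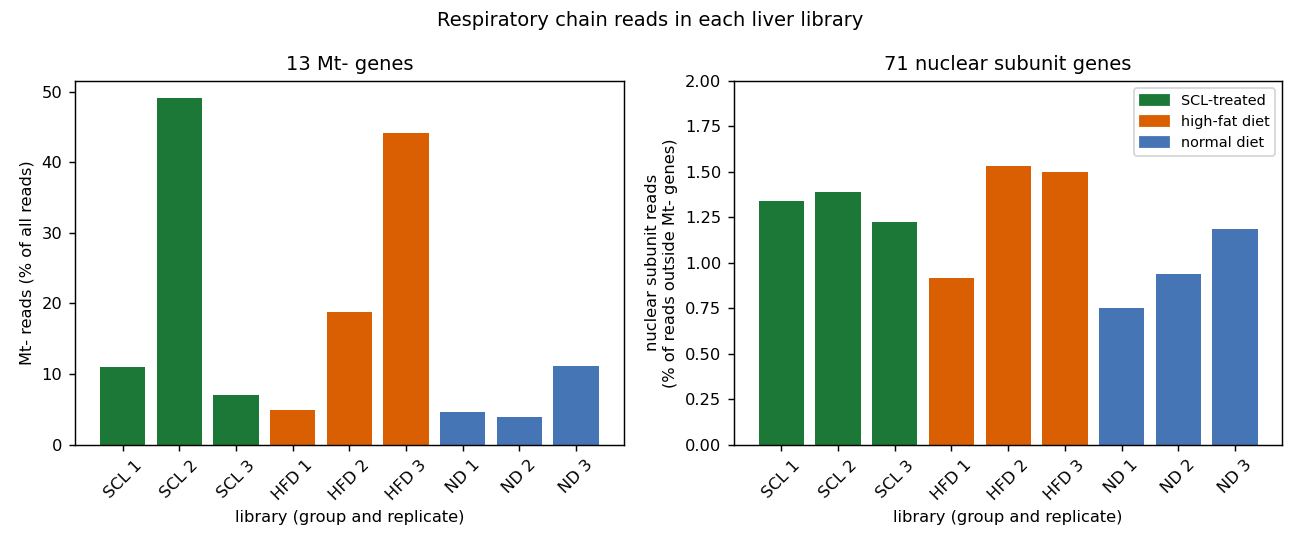
Reads of the respiratory chain in each library, grouped as SCL-treated, high-fat diet and normal diet. The left panel plots Mt- reads as a percentage of all reads, from 3.85% to 49.0%, and the right panel plots nuclear subunit reads as a percentage of the reads outside Mt- genes, from 0.754% to 1.53%.

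Within complexes I, III, IV and V, the median Mt- gene stood above the median nuclear subunit gene in every library, by a factor that was largest in the 2 libraries with the largest Mt- share. Levels between genes are given here as the authors' FPKM, which are per length. In complex I, the median Mt- gene was at 1605, 9276 and 1099 FPKM in SCL-treated replicates 1, 2 and 3, at 1053, 2768 and 5769 FPKM in the high-fat diet replicates, and at 800 FPKM, 439 FPKM and 1640 FPKM in the normal diet replicates. The median nuclear subunit gene of complex I was at 112, 52.6 and 85.8 FPKM in the SCL-treated replicates, 73.7, 112 and 73.0 FPKM in the high-fat diet replicates, and 59.6, 73.4 and 87.5 FPKM in the normal diet replicates. SCL-treated replicate 2, with the largest Mt- share, had the lowest nuclear median, and Mt- reads are part of the total that FPKM divides by.

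The ratio of the 2 medians gave the same order of libraries in each complex at its upper end. In complex I the Mt- to nuclear ratio was 14.3, 176 and 12.8 in the SCL-treated replicates, 14.3, 24.8 and 79.0 in the high-fat diet replicates, and 13.4, 5.98 and 18.7 in the normal diet replicates. In complex III, where the apocytochrome b gene Mt-cyb is the one Mt- gene, it was 64.4, 564 and 39.8 in SCL-treated, 42.7, 126 and 439 in high-fat diet and 43.3, 33.4 and 77.7 in normal diet libraries. In complex IV it was 42.7, 361 and 27.2 in SCL-treated, 25.3, 68.1 and 303 in high-fat diet and 32.5, 18.3 and 50.0 in normal diet libraries. SCL-treated replicate 2 was the highest library and high-fat diet replicate 3 the next in each of these complexes, and the groups overlapped in each. In complex V the ratio was 32.6, 280 and 24.6 in SCL-treated, 14.6, 52.8 and 178 in high-fat diet and 16.3, 13.6 and 37.0 in normal diet libraries, with the Mt- median there being that of Mt-atp6 and the nearly absent Mt-atp8. Between the lowest and the highest library, the Mt- medians spanned 10.8-fold (complex III) to 21.1-fold (complex I), and the nuclear medians spanned 2.05-fold (complex V) to 2.16-fold (complexes III and IV). Complex II, with no Mt- gene, had nuclear medians of 67.3 to 139 FPKM.

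**Figure D2:**
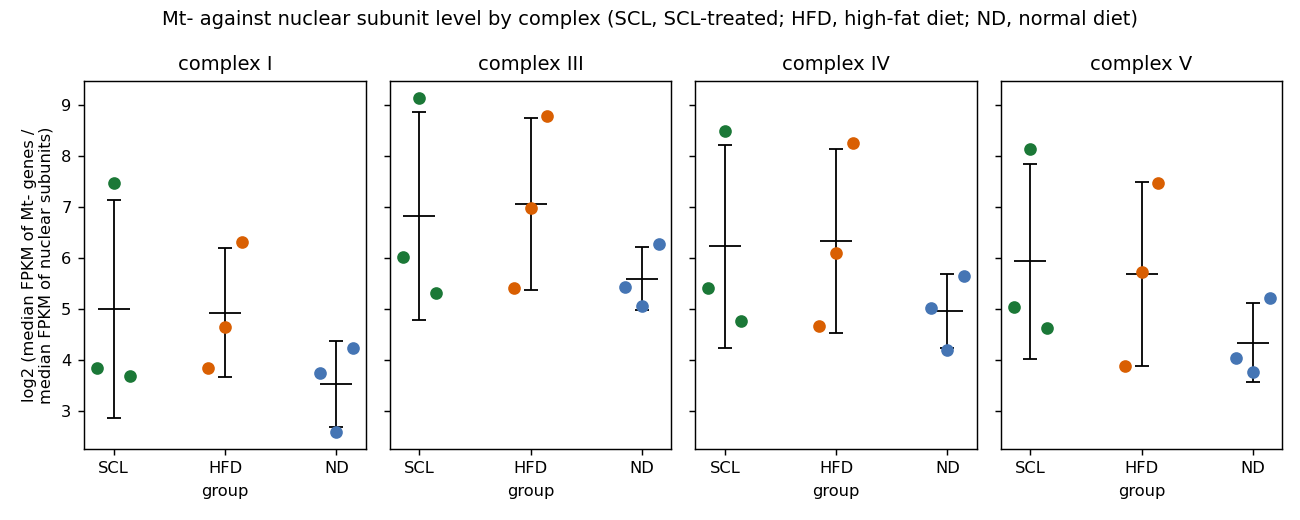
Log2 ratio of the median FPKM of Mt- genes to that of nuclear subunits, by complex and group (points, libraries; bars, mean ± SD of 3 libraries). In complex I the mean log2 ratio was 4.99 in SCL-treated, 4.92 in high-fat diet and 3.52 in normal diet libraries, with 1 SCL-treated and 1 high-fat diet library far above the rest.

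The mixture of genes inside the mitochondrial pool was much steadier than its size. Mt-co1, the catalytic subunit of cytochrome c oxidase, took 32.4% to 42.7% of Mt- reads. Mt-cox3, another core subunit of that enzyme, took 11.2% to 13.7%, Mt-atp6 of the ATP synthase proton channel 9.16% to 13.3%, and Mt-cyb 8.03% to 11.7%. Of the complex I genes, Mt-nd1 took 6.88% to 9.48%, Mt-nd2 6.17% to 10.4% and Mt-nd5 2.09% to 3.94%. Mt-co2, which receives electrons from cytochrome c, took 4.51% to 8.45%. At the low end, Mt-nd3 took 0.465% to 1.28%, Mt-nd6, the gene of the other strand, 0.493% to 0.811%, Mt-nd4 0.235% to 0.673% and Mt-nd4l 0.150% to 0.562%. Mt-nd4 was the lowest of the Mt- genes per length other than Mt-atp8, with a mean of 572 FPKM against 16089 FPKM for Mt-nd1. Both genes are known to lie on the long transcript of the heavy strand. Mt-atp8 had 4 to 42 reads a library, while Mt-atp6 had 63572 or more. The Mt-atp8 and Mt-atp6 genes overlap, as do Mt-nd4l and Mt-nd4, and how the counting assigned shared reads, or reads of the other strand, is not given in the sources used here, so these 4 genes and Mt-nd6 are uncertain.

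One feature of the pool did separate the groups. The 7 complex I genes together took 21.9%, 25.3% and 21.3% of Mt- reads in SCL-treated replicates 1, 2 and 3, 22.7%, 22.4% and 21.8% in those of high-fat diet, and 19.8%, 18.4% and 19.9% in the normal diet replicates. All 6 libraries of SCL-treated and high-fat diet livers were above all 3 normal diet libraries. The high-fat diet libraries with 4.90% and 44.1% of reads in Mt- genes lay within 1 percentage point of each other. SCL-treated replicate 2, with the largest Mt- share (49.0%), had the highest complex I share, 25.3% against 21.9% and 21.3% in its group. A link of the complex I share to the Mt- share was not tested. The 3 complex IV genes gave the mirror image, with 55.1%, 52.5% and 57.3% in the SCL-treated replicates, 56.2%, 54.6% and 54.7% in the high-fat diet replicates, and 61.6%, 58.2% and 57.7% in the normal diet replicates. There the smallest gap was narrow, between 57.3% in SCL-treated replicate 3 and 57.7% in normal diet replicate 3. Shares of 1 pool are tied to each other, so these are not separate differences, and they were read after the values were seen.

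**Figure D3:**
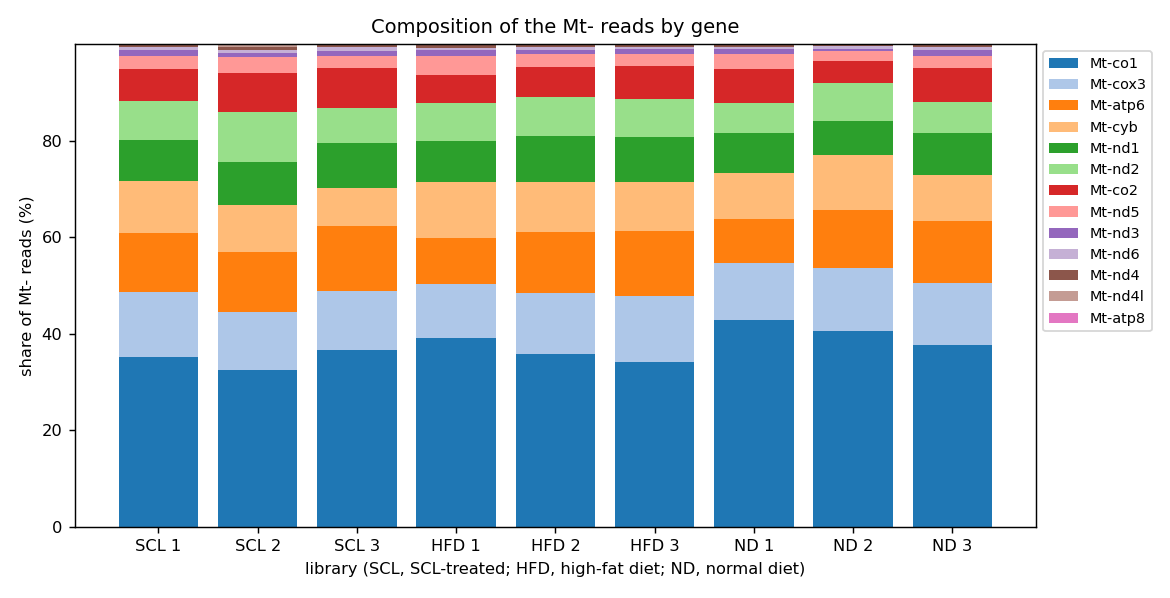
Composition of the Mt- reads of each library, as stacked percentages of 13 genes. Mt-co1 is the largest part in every library, at 32.4% to 42.7%, and the order of the large genes is similar in libraries whose Mt- share of all reads differs 12.7-fold.

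The first comparison asks how respiratory chain RNA in livers of high-fat diet rats differed from that of normal diet rats. None of the 97 members passed an adjusted p under 0.05 in edgeR's quasi-likelihood test, where 0.0083% of all 12041 tested genes did, and the smallest adjusted p of a member was 0.911. At an unadjusted p under 0.05 the count of members was also 0, against 4.32% of all genes (2.77% higher and 1.55% lower), and no member had groups that did not overlap, against 5.32% of all genes higher and 5.28% lower. DESeq2 and limma-voom with quality weights called 0 members as well. The fitted log2 fold change was above 0 for 77 of 97 members and for 52.8% of all genes. Its median was 2.0 over the Mt- genes, 0.32 over the nuclear subunits and 0.03 over all genes tested. Without high-fat diet replicate 3 the Mt- median was 0.96, and without high-fat diet replicate 2 the nuclear subunit median was -0.01.

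The second comparison sets SCL-treated livers against high-fat diet livers. It shares its high-fat diet libraries with the first. No member and no gene passed an adjusted p under 0.05 in edgeR, so the background was 0.0%, and the smallest adjusted p of a member was 0.9997. At an unadjusted p under 0.05 there were 0 members, against 1.95% of all genes, while DESeq2 and limma-voom also called 0 members. Groups did not overlap for 1 member, Cox7a2l, which was higher, where 2.37% of all genes were higher and 2.43% lower without overlap. The log2 fold change was above 0 for 69 of 97 members and 46.7% of all genes, with medians of 0.05 over the Mt- genes, 0.17 over the nuclear subunits and -0.03 over all genes. The Mt- median was -1.41 without SCL-treated replicate 2 and 1.18 without high-fat diet replicate 3, so its direction rested on these libraries.

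The last comparison sets SCL-treated livers against normal diet livers and shares libraries with both others. Again no member passed an adjusted p under 0.05 in edgeR, with a background of 0.0083%, and the smallest adjusted p of a member was 0.665. At an unadjusted p under 0.05, 6 members were higher (Mt-nd2, Mt-nd4, Mt-nd4l, Mt-nd5, Ndufb2 and Ndufc1) and 0 lower, against 3.32% of all genes higher and 3.55% lower. Groups did not overlap for 11 members, all higher, where 7.47% of all genes were higher and 7.81% lower without overlap. These 11 were the ATP synthase genes Atp5e, Atp5j and Atp5l, the oxidase gene Cox7c, the complex I genes Mt-nd4l, Ndufb2, Ndufb5, Ndufb7, Ndufc1 and Ndufs4, and the assembly factor Ndufaf5. The log2 fold change was above 0 for 82 of 97 members and 51.8% of all genes, with medians of 2.15 over the Mt- genes, 0.35 over the nuclear subunits and 0.03 over all genes. The Mt- median was 0.67 without SCL-treated replicate 2.

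Leaving out both libraries over 40% Mt- lowered the Mt- medians and raised the number of members without overlap. This alternative was chosen after the data were seen. The Mt- median log2 fold change was then 0.97 for high-fat diet against normal diet, -0.31 for SCL-treated against high-fat diet, with 0.66 for SCL-treated against normal diet. Members whose groups did not overlap then numbered 1, 12 and 37 in the 3 comparisons, all higher in the group named first, against 7.75%, 14.1% and 15.5% of all genes higher. With fewer libraries in a group, groups without overlap are more frequent for all genes. The nuclear subunits vary together, as described further on, so these members are not separate results. No member passed an adjusted p under 0.05 there either.

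**Figure D4:**
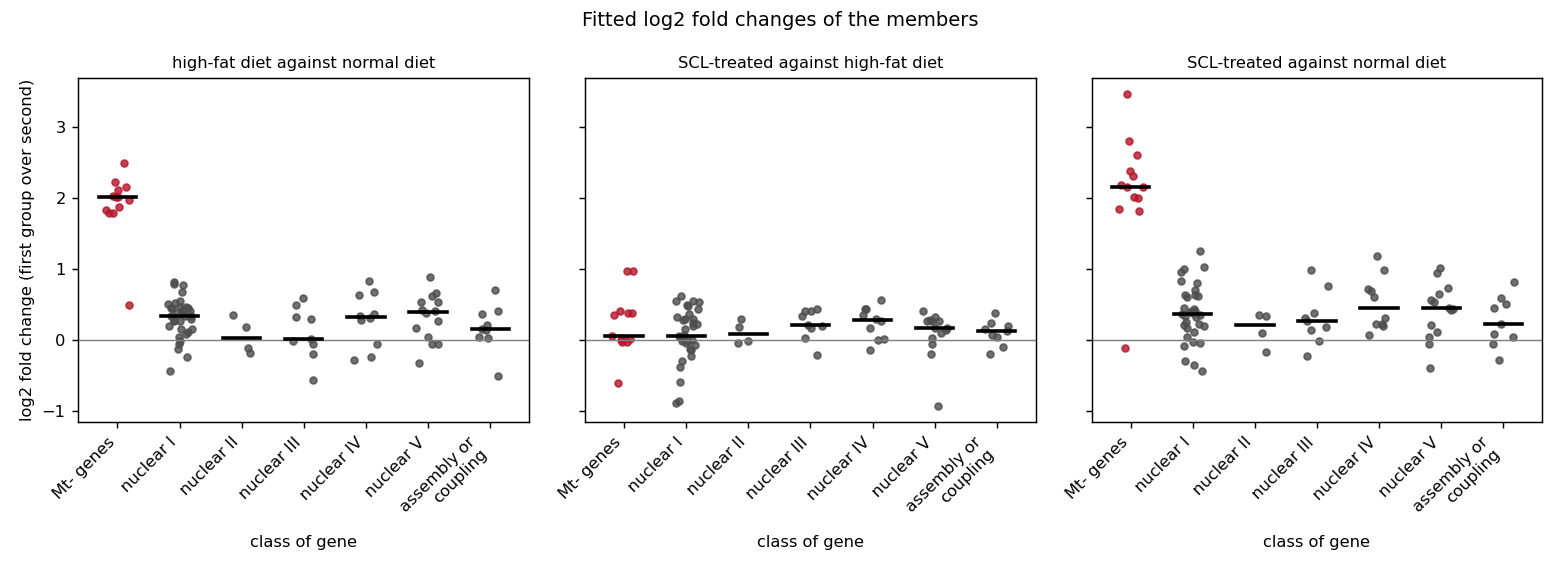
Fitted log2 fold changes of 93 members in 3 comparisons, by class (points, genes; bars, medians). Mt- genes lie around 2 in both comparisons with normal diet, with Mt-atp8 far below and Mt-nd4l highest in the last, and around 0 for SCL-treated against high-fat diet, while nuclear classes have medians between 0.01 and 0.44; no gene shown passed the test.

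The levels of the 13 Mt- genes varied widely within each group. From here on CPM are scaled by TMM, which corrects the library total for the make-up of the library. Mt-co1 was at 37386, 191350 and 28906 in SCL-treated replicates 1, 2 and 3, at 15525, 70810 and 168236 in the high-fat diet replicates and at 18059, 13691 and 42053 in the normal diet replicates. High-fat diet replicate 1 lay inside the normal diet range and the other high-fat diet libraries above it. Its log2 fold change was 1.79 (SE 1.00) for high-fat diet against normal diet and 1.80 (SE 1.00) for SCL-treated against normal diet. Mt-nd4l, a small membrane subunit of complex I, was at 248, 3318 and 187 CPM in the SCL-treated replicates, 81.6, 367 and 1471 CPM in the high-fat diet replicates and 88.9, 85.7 and 167 CPM in the normal diet replicates. All SCL-treated libraries were above all normal diet libraries, by a narrow margin for replicate 3, and SCL-treated replicate 2 stood far above the rest of its group. Its log2 fold change of 3.46 (SE 1.22) for SCL-treated against normal diet was the largest of any member. Mt-atp8, which passed the read threshold with 4 reads in its lowest library, had a log2 fold change of 0.49 (SE 0.90) for high-fat diet against normal diet and -0.12 (SE 0.91) for SCL-treated against normal diet.

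Complex I, the NADH dehydrogenase, held 34 nuclear subunit genes. Their median log2 fold change was 0.33 for high-fat diet against normal diet, 0.05 for SCL-treated against high-fat diet, with 0.36 for SCL-treated against normal diet. Ndufa6, an accessory subunit with the highest FPKM of the nuclear complex I genes, was at 214, 200 and 278 CPM in SCL-treated replicates 1, 2 and 3, at 79.3, 295 and 217 CPM in the high-fat diet replicates and at 98.8, 111 and 219 CPM in the normal diet replicates. The lowest and the highest library were both of the high-fat diet group. Ndufc1, another accessory subunit, was at 86.3, 113 and 126 CPM in SCL-treated, 48.8, 94.2 and 69.5 CPM in high-fat diet and 34.7, 47.4 and 78.7 CPM in normal diet libraries. Its SCL-treated libraries were above all normal diet libraries and overlapped the high-fat diet range, and the log2 fold change was 1.02 (SE 0.36) against normal diet and 0.61 (SE 0.36) against high-fat diet. Ndufb2 was at 110, 171 and 100 CPM in SCL-treated, 41.8, 127 and 107 CPM in high-fat diet and 32.5, 50.4 and 77.9 CPM in normal diet libraries, with a log2 fold change of 1.24 (SE 0.45) for SCL-treated against normal diet. For high-fat diet against normal diet the smallest p of a nuclear complex I gene was that of Ndufb7, with a log2 fold change of 0.76 (SE 0.44). Ndufb6 was lowest in the 2 libraries set apart, at 34.5, 2.62 and 17.0 CPM in SCL-treated, 23.1, 19.0 and 7.03 CPM in high-fat diet and 16.7, 25.5 and 25.0 CPM in normal diet libraries. It was chosen after its values were seen, as the nuclear complex I gene with the widest span. The lowest complex I subunit per length was Ndufa12, with a mean of 3.02 FPKM against 357 FPKM for Ndufa6. Ndufa10l1, a copy of Ndufa10, shares sequence with it and its counts are uncertain.

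Complex II, succinate dehydrogenase, is the one complex that also acts in the citric acid cycle. Sdha, its flavoprotein, was at 205, 84.4 and 169 CPM in the SCL-treated replicates, 254, 135 and 85.0 CPM in the high-fat diet replicates and 180, 188 and 148 CPM in the normal diet replicates. Its order differed from that of Ndufa6: high-fat diet replicate 1, the lowest library for Ndufa6, was the highest for Sdha. The complex did not share this order as a whole. Within the high-fat diet group, replicate 1 was the highest for Sdhc too, but the lowest for Sdhb and Sdhd. Nor was the order limited to complex II. Ndufs1 (97.9 CPM) and Uqcrc2 (90.0 CPM), named after their values were seen, were also highest of all libraries in high-fat diet replicate 1. Sdhb, the iron-sulfur subunit with the highest FPKM of the complex, was at 162, 99.8 and 198 CPM in SCL-treated, 129, 203 and 134 CPM in high-fat diet and 101, 116 and 150 CPM in normal diet libraries. The log2 fold change of Sdhb was 0.35 (SE 0.33) for high-fat diet against normal diet, and that of the membrane anchor Sdhc 0.28 (SE 0.33) for SCL-treated against high-fat diet. The other anchor, Sdhd, had 0.34 (SE 0.29) for SCL-treated against normal diet. The groups overlapped for all 4 genes in each comparison.

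Complex III passes electrons from ubiquinol to cytochrome c. Uqcrq, a small structural subunit, was at 498, 380 and 874 CPM in SCL-treated replicates 1, 2 and 3, at 209, 687 and 432 CPM in the high-fat diet replicates and at 206, 282 and 402 CPM in the normal diet replicates. SCL-treated replicate 2 lay inside the normal diet range, and the log2 fold change was 0.98 (SE 0.48) for SCL-treated against normal diet and 0.58 (SE 0.48) for high-fat diet against normal diet. Uqcr10, the highest nuclear gene of the complex in FPKM, had a log2 fold change of 0.76 (SE 0.44) for SCL-treated against normal diet. Uqcrc1, a core protein, had 0.40 (SE 0.31) for SCL-treated against high-fat diet. The catalytic haem protein Cyc1 had 0.01 (SE 0.33), 0.16 (SE 0.33) and 0.17 (SE 0.33) in the 3 comparisons, in that order. Its electron acceptor, cytochrome c (Cycs), was at 42.4, 13.8 and 20.5 CPM in SCL-treated, 40.1, 41.8 and 24.5 CPM in high-fat diet and 28.7, 38.7 and 34.8 CPM in normal diet libraries, with a log2 fold change of -0.47 (SE 0.39) for SCL-treated against high-fat diet. Uqcrc2 had the lowest log2 fold change of all members for high-fat diet against normal diet, -0.56 (SE 0.49).

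Complex IV, cytochrome c oxidase, has several nuclear subunits that come in isoforms for different tissues. Cox4i1, its most abundant nuclear gene, was at 548, 465 and 607 CPM in SCL-treated, 272, 644 and 433 CPM in high-fat diet and 277, 305 and 492 CPM in normal diet libraries, with a log2 fold change of 0.59 (SE 0.38) for SCL-treated against normal diet. Its isoform Cox4i2, known from lung, had 5, 16 and 10 reads in the SCL-treated replicates, 4, 5 and 1 in the high-fat diet replicates and 5, 3 and 4 in the normal diet replicates, just short of the read threshold. The heart and muscle isoforms Cox6a2 and Cox8b and the testis isoform Cox6b2 had at most 2, 6 and 11 reads in any library, while their ubiquitous or liver counterparts Cox6a1, Cox8a and Cox6b1 had at least 636, 834 and 911 reads. Ndufa4 had 1111 to 3662 reads and its hypoxia-linked paralogue Ndufa4l2 at most 8. Cox7a2 passed the threshold with 6 reads in its lowest library and had at most 54, a mean of 4.71 FPKM, and as a gene with close copies it is uncertain. Cox7b had the largest log2 fold change with normal diet among the well-covered nuclear oxidase genes, 0.82 (SE 0.48) for high-fat diet and 0.98 (SE 0.48) for SCL-treated livers. Cox6c had 0.43 (SE 0.42) for SCL-treated against high-fat diet. Cox7a2l, the supercomplex factor, was at 85.9, 81.6 and 101 CPM in the SCL-treated replicates, 44.7, 81.1 and 53.6 CPM in the high-fat diet replicates and 49.7, 61.1 and 87.0 CPM in the normal diet replicates. Its SCL-treated libraries were above the high-fat diet libraries by a gap of less than 1 CPM, and the log2 fold change was 0.58 (SE 0.31).

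Complex V, the ATP synthase, held the nuclear subunit with the smallest span across libraries. Atp5b, the catalytic beta subunit with the highest mean of the nuclear genes of its complex (612 FPKM), was at 1218, 877 and 1436 CPM in SCL-treated, 970, 1219 and 956 CPM in high-fat diet and 923, 995 and 1143 CPM in normal diet libraries. Its highest library was 1.64-fold above its lowest, while the median span of the 71 nuclear subunits was 2.96-fold. Atp5e, the small epsilon subunit, was at 258, 287 and 320 CPM in SCL-treated, 99.0, 380 and 310 CPM in high-fat diet and 90.2, 123 and 216 CPM in normal diet libraries, with a log2 fold change of 0.88 (SE 0.48) for high-fat diet and 1.01 (SE 0.48) for SCL-treated against normal diet. Its SCL-treated libraries were above all normal diet libraries. Atp5i, a membrane subunit of the dimer, was at 62.3, 23.6 and 17.7 CPM in SCL-treated, 21.4, 82.6 and 95.4 CPM in high-fat diet and 24.1, 53.1 and 60.4 CPM in normal diet libraries. It had the lowest log2 fold change of all members for SCL-treated against high-fat diet, -0.94 (SE 0.61), and the groups overlapped. The 3 genes of the c ring, which encode the same mature protein, had log2 fold changes for SCL-treated against normal diet of 0.42 (SE 0.37) for Atp5g1, 0.10 (SE 0.37) for Atp5g2 and 0.03 (SE 0.38) for Atp5g3.

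The nuclear subunits varied together from library to library. Of the 71 genes, 66, 21 and 60 were above their own mean over the 9 libraries in SCL-treated replicates 1, 2 and 3, 10, 66 and 36 in those of high-fat diet, and 6, 15 and 62 in the normal diet replicates, on the log2 scale of TMM-scaled CPM plus 1. On this scale each group thus held at least 1 library with most genes above and 1 with most below. Per reads outside Mt- genes, the counts were 65, 42 and 41 in the SCL-treated replicates, so none there had most below. They were 11, 65 and 52 in the high-fat diet replicates and 4, 14 and 49 in the normal diet replicates. In the high-fat diet and normal diet groups the size of the shift on the TMM scale differed with gene length. Length was taken as what the authors' FPKM implies. For the 30 subunits of 600 nt or less, the median deviation was -0.66, 0.71 and 0.22 in the high-fat diet replicates and -0.76, -0.27 and 0.19 in the normal diet replicates. For the 17 subunits over 1200 nt it was -0.14, 0.25 and -0.16 in the high-fat diet replicates and -0.32, -0.13 and 0.17 in the normal diet replicates. In the SCL-treated replicates the length classes lay closer, at 0.45, -0.29 and 0.42 for the short and 0.30, -0.32 and 0.45 for the long subunits.

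Short genes outside the chain varied in a similar way in the high-fat diet and normal diet libraries. The 393 other tested genes of 600 nt or less had medians of -0.44, 0.44 and 0.15 in the high-fat diet replicates and -0.44, -0.18 and 0.15 in the normal diet replicates. Over all 9 libraries these medians spanned 0.88 for the short other genes and 0.09 for the 10321 other genes over 1200 nt, against 1.48 and 0.77 for the short and long nuclear subunits. Most respiratory subunits are small proteins with short transcripts, and the part of transcript length in the comparisons was not tested.

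**Figure D5:**
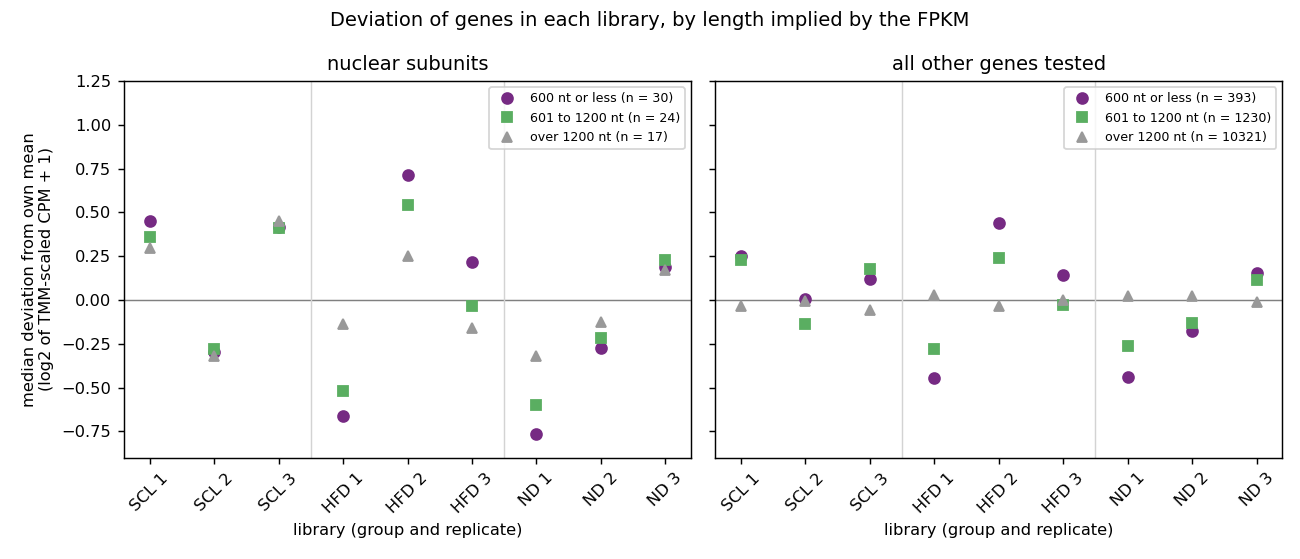
Median deviation of genes from their own mean over 9 libraries, by library and implied length, for 71 nuclear subunits (left) and all other tested genes (right). Short genes in both panels lie lowest in high-fat diet replicate 1 and normal diet replicate 1 and highest in high-fat diet replicate 2, and the spread between libraries is larger for subunits.

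The genes that build and regulate the chain gave no called gene in any of 8 lists and 3 comparisons in edgeR. Of all 12041 genes tested, 1, 0 and 1 were called, so this does not set the lists apart from other genes. The lists held mitochondrial transcription and RNA handling, mitochondrial DNA replication, regulators of respiration, assembly factors, coenzyme Q synthesis, other electron carriers, the citric acid cycle, and chaperones and import. Of 26 tested genes of mitochondrial transcription and RNA handling, the median log2 fold change was 0.18, 0.05 and 0.25 in the 3 comparisons, in that order. Tfam, which packages mitochondrial DNA and takes part in its transcription, was at 36.9, 29.3 and 30.1 CPM in the SCL-treated replicates, 29.0, 31.7 and 33.6 CPM in the high-fat diet replicates and 28.2, 37.0 and 40.5 CPM in the normal diet replicates. The 2 libraries with the highest Mt- share were not apart from the others in Tfam. Polrmt, the mitochondrial RNA polymerase, was at 21.3, 30.2 and 28.1 CPM in SCL-treated, 27.2, 18.6 and 30.8 CPM in high-fat diet and 23.4, 23.3 and 22.0 CPM in normal diet libraries. In Polrmt the same 2 libraries were the highest, at 30.2 and 30.8 CPM against 18.6 to 28.1 CPM in the others. A link of either gene to the Mt- share was not tested. Tfam and Polrmt were named after their values were seen. The 2 most abundant genes of this list, Lonp1 and Lrpprc, had log2 fold changes of -0.28 (SE 0.36) and -0.43 (SE 0.29) for high-fat diet against normal diet.

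Of 16 tested regulators of respiration, 2 were higher (Pprc1 and Esrrg) and 1 lower at an unadjusted p under 0.05 for high-fat diet against normal diet, where 2.77% of all genes were higher and 1.55% lower. The lower one was Ppargc1a, the coactivator PGC-1alpha. For SCL-treated against normal diet 0 regulators were higher and 2 lower, Ppargc1a and the kinase subunit gene Prkaa2, where 3.32% of all genes were higher and 3.55% lower. These genes, and the others that this and the next paragraph name for their unadjusted p, were chosen after their values were seen. Ppargc1a was at 1.02, 0 and 0.614 CPM in the SCL-treated replicates, 0.627, 0.628 and 0.174 CPM in the high-fat diet replicates and 4.38, 3.45 and 0.795 CPM in the normal diet replicates. The high-fat diet libraries lay below all normal diet libraries, with few reads in each, and the log2 fold change was -2.55 (SE 0.97), with an adjusted p of 0.911 in edgeR. The 2 most abundant regulators, Sirt3 and Yy1, had log2 fold changes of -0.19 (SE 0.25) and -0.25 (SE 0.47) in that comparison. Among 11 tested genes of mitochondrial DNA replication and nucleotide supply, Tymp, a thymidine phosphorylase and the most abundant, was at 361, 1246 and 457 CPM in SCL-treated, 339, 657 and 754 CPM in high-fat diet and 222, 180 and 305 CPM in normal diet libraries. All normal diet libraries were below the libraries of both other groups, with log2 fold changes of 1.31 (SE 0.51) for high-fat diet and 1.55 (SE 0.51) for SCL-treated livers. For SCL-treated against normal diet, Tymp, Polg2 and Dguok were higher at an unadjusted p under 0.05 and 0 genes of the list lower, against 3.32% of all genes higher and 3.55% lower. Polg, the mitochondrial DNA polymerase and second in abundance, was lower without overlap in SCL-treated livers, at 108, 42.7 and 83.3 CPM against 169, 177 and 122 CPM in normal diet livers. Its log2 fold change was -0.998 (SE 0.52) there and -0.92 (SE 0.52) for high-fat diet against normal diet.

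Of 36 tested assembly factors outside the member families, the median log2 fold change was 0.13, 0.16 and 0.24 in the 3 comparisons. Cox14 and the copper chaperone Cox17, the most abundant, had 0.27 (SE 0.38) and 1.02 (SE 0.59) for high-fat diet against normal diet. The citric acid cycle, 12 tested genes, had medians of 0.00, 0.09 and 0.22, with the abundant Mdh2 at 0.54 (SE 0.37) and Fh at 0.34 (SE 0.29) for SCL-treated against normal diet. Coenzyme Q synthesis, 13 genes, had medians of 0.23, -0.01 and 0.25, with Coq8a at 0.67 (SE 0.44) and Coq9 at -0.09 (SE 0.22) for SCL-treated against normal diet. Other electron carriers, 14 genes, had medians of -0.01, 0.12 and 0.25, with Etfb at 0.50 (SE 0.43) and Etfa at 0.40 (SE 0.33) for high-fat diet against normal diet. Chaperones and import, 20 genes, had medians of -0.03, 0.12 and 0.09, with Hspe1 at 0.52 (SE 0.43) and Clpx at 0.24 (SE 0.33) for high-fat diet against normal diet. Chchd4, which folds cysteine-rich proteins imported into the intermembrane space, was at 0.884, 0.388 and 1.49 CPM in SCL-treated, 0.0522, 0.157 and 0.347 CPM in high-fat diet and 1.58, 1.67 and 0.939 CPM in normal diet libraries. High-fat diet libraries were below all others, on at most 4 reads each. SCL-treated replicate 2 (0.388 CPM) and high-fat diet replicate 3 (0.347 CPM) had equally few reads, so scaling alone set them apart. The log2 fold change was -2.95 (SE 0.81) for high-fat diet against normal diet, with an adjusted p of 0.807 in edgeR. For SCL-treated against high-fat diet it was 2.36 (SE 0.82), with an adjusted p of 0.9997 in edgeR. The 9 assembly or coupling factors among the members had medians of 0.15, 0.12 and 0.22, and Ndufaf5 was higher without overlap in SCL-treated livers, at 6.60, 8.05 and 9.73 CPM against 3.84, 4.84 and 5.20 CPM in normal diet livers.

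In the authors' deposited tables, where DESeq2 is the tool named in the submitters' processing notes, 0 of 97 members had an adjusted p under 0.05 in either comparison. Past that threshold were 53 genes in the authors' deposited table that includes normal diet, and 0 genes in the authors' deposited table that includes SCL-treated livers. The smallest adjusted p of a member in the authors' deposited tables was 0.151, for Mt-nd4l with high-fat diet and normal diet. At an unadjusted p under 0.05 the authors' deposited tables held 12 members and 5.87% of all genes in that comparison, and 0 members and 1.54% of all genes in the other. These 12 were the Mt- genes other than Mt-atp8, which vary together, and no nuclear member was among them.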

How the data were processed

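Per the labels' protocols, Trizol was used to extract liver RNA, and libraries were prepared by the NEBNext Ultra method. Per the file headers, the authors deposited, in a table for each comparison with the high-fat diet group, raw read counts per gene, FPKM values, a signal of counts divided by a size factor, and their own log2 fold change with its p-value, raw and adjusted. The signal was not used. The submitters' processing notes name mouse build mm9 and, without a version, DESeq2; the mouse build was not taken as that of the rat counts. The aligner, the counter and whether strand was used were not stated in what was used here. The 15565 genes in both tables were analysed, and the high-fat diet counts in the 2 tables were equal for each of them. Total reads of 12413774 to 15521648 a library limit the precision of genes with few reads. No 2 libraries of a group were alike within sampling noise.

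Testing of the deposited counts was by edgeR 4.0.16 under R 4.3.3: all 9 libraries in 1 fit with group as the only term, filterByExpr with a minimum count of 10 (12041 genes left, all 97 members among them), TMM scaling, the quasi-likelihood test, and Benjamini-Hochberg adjustment over all genes tested. The standard error is the absolute log2 fold change over the square root of F. The first group named is the numerator. In the authors' deposited table that includes normal diet, the log2 fold change runs the other way, and none is printed. Alternatives were DESeq2 1.42.0, its size factors, library totals alone, removal of Mt- transcripts, no filter, a replicate block, a fit of the 6 compared libraries alone, limma-voom (limma 3.58.1) with quality weights, and each library left out. Added after the data were seen were the Mt- share as a covariate and removal of the 2 libraries over 40% Mt-. The steps were tested on simulated counts. Plots used matplotlib 3.10.9 and pandas 2.3.3.

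The members, the 8 related lists and the marker lists were chosen with earlier results of these data known. Genes were named by a rule: every Mt- gene, and per complex the nuclear subunit of highest mean FPKM and that of smallest p in each comparison. It also took Cyc1 and Cycs, the isoform sets, members at the read threshold, any called member, and the 2 most abundant genes of each related list. Sdha, Ndufb2 and Ndufaf5 fall outside this rule and were picked with their values in view. Any other gene is marked in the text as picked that way, or belongs to a full list of genes that passed a stated cut. The rest are the lowest or highest of the values they stand beside.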

Additional observations from a re-analysis of the deposited data

How the results depend on the processing

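No member was called under any alternative run in any of the 3 comparisons. The count of all genes called depended on the tool. For high-fat diet against normal diet it was 1 in edgeR, 50 in DESeq2, 26 in limma-voom, 2 with no count filter, 0 with library totals alone, with only the 6 libraries compared and without the 2 libraries over 40% Mt- reads, and 1 to 4 with each library left out in turn (2 without high-fat diet replicate 3, 4 without normal diet replicate 3). For SCL-treated against high-fat diet it was 0 in edgeR and 1 in DESeq2, and 0 to 0 with each library left out. For SCL-treated against normal diet it was 1 in edgeR, 40 in DESeq2, 152 in limma-voom, 0 with library totals alone and without the 2 libraries over 40% Mt- reads, and 0 to 1 with each library left out (0 without any one of the SCL-treated replicates, high-fat diet replicate 2, or normal diet replicates 1 or 2). The causes were not tested. The median log2 fold change of Mt- genes, with the Mt- share itself as a covariate, which by construction takes up their variation, was 0.027 for high-fat diet against normal diet and 0.27 for SCL-treated against normal diet. It was 0.66 for SCL-treated against normal diet without the 2 libraries over 40% Mt- reads. With each library left out it was 0.96 to 2.84 for high-fat diet against normal diet, -1.41 to 1.18 for SCL-treated against high-fat diet, with 0.67 to 3.04 for SCL-treated against normal diet. The nuclear subunit median was -0.01 to 0.53, 0.00 to 0.38 and 0.20 to 0.56 in the same comparisons. The lowest and highest for high-fat diet against normal diet came when high-fat diet replicates 2 and 1 were left out, and the median was 0.12 without normal diet replicate 1. Members whose groups did not overlap numbered 1, 12 and 37 of 97 without the 2 libraries over 40% Mt- reads. Of all genes, 7.75%, 14.1% and 15.5% were higher without overlap there, so the first 2 counts were not above the background. The third was above it, but the nuclear subunits vary together, so its genes are not separate results. The removal was also chosen after the data were seen. Library totals alone shifted the median of all genes by -0.16 for SCL-treated against high-fat diet, with -0.23 for SCL-treated against normal diet, so nuclear changes are relative to that. In some alternative 25, 27 and 9 of 39 tested named members had another sign in the 3 comparisons, none of them called. Libraries with the same replicate number did not deviate together in each pair, with correlations of 0.60, -0.29 and 0.43 for high-fat diet against normal diet, so the numbers were not taken as pairing. With the replicate block the Mt- medians were 1.61, 0.55 and 2.1, the nuclear medians 0.31, 0.21 and 0.38, and no member was called. Mt-atp8, Cox7a2 and Ndufa12, with few reads, are the members whose values depth limits most.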
